A study of Mus musculus with 21 samples.

Results

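The genes described here make the calcium cycle of the skeletal muscle fibre: the release channel Ryr1, the couplers Jph1 and Trdn, the store proteins Casq1 and Casq2, the pumps Atp2a1 and Atp2a2, the pump inhibitors Sln and Pln, and the cytosolic buffer Pvalb. They were chosen by name for their roles, and each was found through its Ensembl mouse identifier, which gave 10 of the 46071 genes in the count table. All 10 passed the filter on low counts and are among the 12658 genes tested. RNA sequencing was done on 21 libraries from mouse hindlimb muscle, powdered quadriceps and gastrocnemius combined. The comparisons ask what diabetes brought on with streptozotocin (STZ), which kills the beta cells of the pancreas, and the loss of FoxO1, FoxO3 and FoxO4 in muscle do to these transcripts.

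All 4 groups carried floxed Foxo1, Foxo3 and Foxo4 and were littermates on a mixed C57 and 129 background. The 4 floxed and 5 STZ floxed libraries came from mice without Cre. The 6 TKO and 6 STZ TKO libraries came from mice in which Cre, driven by the skeletal actin promoter ACTA1, removed the floxed parts in muscle fibres, so that other cells of the tissue kept the genes. Fasted mice received STZ at 150 mg/kg, females another 75 mg/kg on day 3, and mice were kept when random blood glucose stayed above 300 mg/dL. The design names citrate buffer as the control injection, and the labels of the untreated libraries give no drug. The labels give neither sex nor age per library, nor do they say if every library is another mouse. The p-values therefore measure the spread between these libraries, which may be technical.

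In a resting fibre, calcium is held in the sarcoplasmic reticulum, bound to calsequestrin. An action potential in the transverse tubule opens the ryanodine receptor at the triad, the junction that junctophilin and triadin hold together, and the released calcium turns on contraction. Relaxation follows when the SERCA pumps return calcium to the store, restrained by the small membrane peptides sarcolipin and phospholamban, while parvalbumin binds calcium in the cytosol of fast fibres.

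Casq1 was the only one of the 10 transcripts to pass the test in any comparison. It was higher in STZ TKO than in STZ floxed muscle, and its lowest levels were in STZ floxed muscle. Without STZ, Sln and Casq2 had the largest fold changes between knockout and floxed muscle, from low levels and without passing the test, and both rested in part on 1 library. The channel, its couplers and both pumps did not pass the test in any of the 5 comparisons.

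Total counts per library ranged from 2951290 to 7687823. Foxo4 lay at 124 to 201 CPM (counts scaled to the size of the library after TMM normalization) in libraries without Cre and at 3.87 to 12.7 CPM in those with it. Foxo1 fell by 2.22 on the log2 scale without STZ (edgeR adjusted p = 2.8e-04) and by 1.84 under STZ (3.7e-04), whereas the Foxo3 count over the whole gene was not lower (73.1 ± 11.3 CPM in floxed, SD, n = 4, and 96.1 ± 16.6 CPM in TKO, SD, n = 6). Under STZ, Foxo3 was at 90.27 ± 14.05 CPM in STZ floxed (SD, n = 5) and at 136.2 ± 60.65 CPM in STZ TKO (n = 6). A count over the whole gene does not check the loss of some of its exons. Fast fibre transcripts dominated every group: group means per kb of exon were 9073 to 13200 CPM for Myh4, 302 to 647 for Myh1, 147 to 254 for Myh2 and 41.5 to 58.3 for the slow myosin Myh7. In such bulk tissue, fewer cells of a type and less RNA per cell cannot be told apart.

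**Figure D1:**
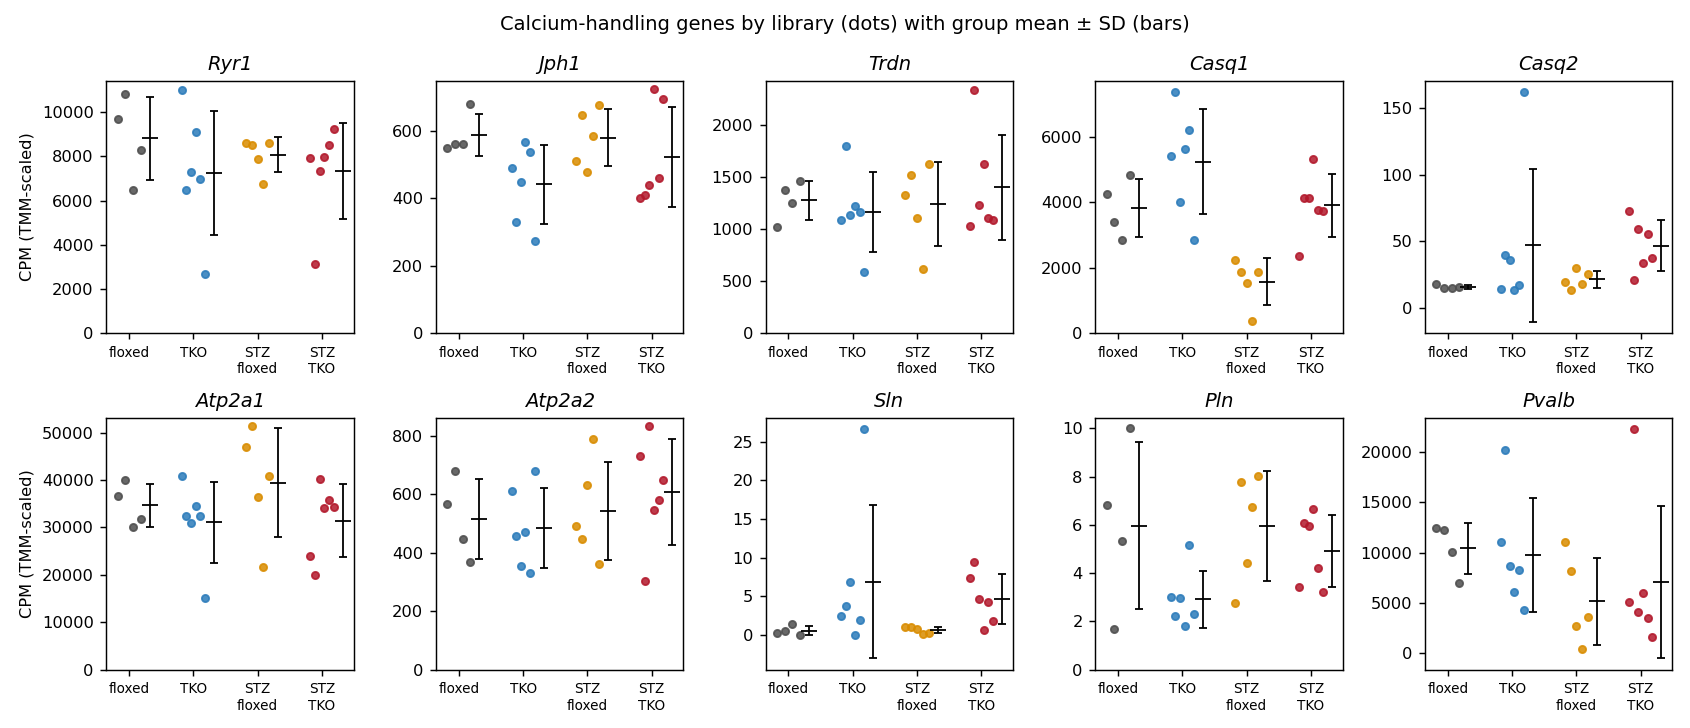
Expression of the 10 genes in CPM (linear axis from or near 0) in floxed, TKO, STZ floxed and STZ TKO libraries; dots are libraries and bars are mean ± SD. The 5 STZ floxed libraries lie at 372 to 2240 CPM for Casq1, below all 4 floxed libraries, while 1 TKO library stands far above the others for Casq2 (162 CPM) and Sln (26.6 CPM).

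Ryr1, the release channel of the reticulum, was measured at 9682, 10840, 6463 and 8276 CPM in floxed muscle and at 8625, 8533, 7897, 6762 and 8595 CPM in STZ floxed muscle. The 6 TKO libraries ran from 2660 over a median of 7149 to 11000 CPM, and the 6 STZ TKO libraries from 3115 over 7946 to 9243 CPM. The groups overlapped throughout, and the lowest values came from TKO library 20 (2660 CPM) and STZ TKO library 8 (3115 CPM). The log2 fold changes were -0.13 ± 0.32 (SE) for STZ in floxed muscle, -0.28 ± 0.31 for the knockout without STZ, -0.14 ± 0.29 for the knockout under STZ and 0.02 ± 0.28 for STZ in knockouts. None passed edgeR's quasi-likelihood test (Benjamini-Hochberg adjusted p of 0.835 to 0.989).

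Jph1 encodes junctophilin 1, which ties the reticulum to the transverse tubule. Its floxed libraries lay at 549, 561, 562 and 679.5 CPM, and its STZ floxed libraries at 511, 648, 479, 585 and 678 CPM. The TKO libraries spanned 273 to 568 CPM with a median of 469, and the STZ TKO libraries 400.2 to 726 CPM with a median of 450. Of the TKO libraries, 5 of 6 lay below every floxed library, and the log2 fold change was -0.41 ± 0.22, which did not pass the test (edgeR adjusted p = 0.506). Jph1 was lower in the knockout in 4 of the 4 runs of consecutive library codes that hold both groups. The TKO libraries of these runs all lay below every floxed library, so that count adds nothing. TKO library 13, at 568 CPM, lies in a run without a floxed library. Under STZ the difference was -0.15 ± 0.21, and Jph1 was higher in the knockout in 1 of 4 runs.

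Trdn encodes triadin, which links calsequestrin to the channel. It was present at 1022, 1368, 1246 and 1460 CPM in floxed and at 1326, 1514, 1102, 613 and 1624 CPM in STZ floxed libraries. TKO libraries ranged from 588.5 over 1147 to 1793 CPM, and STZ TKO libraries from 1024 over 1163 to 2331 CPM. Here too the groups overlapped, and each of the 4 log2 fold changes between groups lay between -0.13 and 0.26 with standard errors of 0.26 to 0.30.

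Casq1, the calsequestrin of fast fibres and the main calcium store of the reticulum, showed the clearest group pattern. Floxed libraries held 4265, 3393, 2850 and 4842 CPM, and STZ floxed libraries 2240, 1881, 1520, 372 and 1862 CPM. TKO libraries ran from 2842 over a median of 5523 to 7363 CPM, and STZ TKO libraries from 2357 over 3945 to 5325 CPM. Every STZ floxed library lay below every library of the other 3 groups. Group means were 3838 ± 888 (SD, n = 4), 1575 ± 719 (n = 5), 5246 ± 1608 (n = 6) and 3906 ± 956 CPM (n = 6) in the same order. Only the step from floxed to STZ floxed exceeded the larger SD of the neighbouring groups in the order of means.

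Under STZ, Casq1 was 1.31 ± 0.34 higher in knockout muscle on the log2 scale (edgeR's quasi-likelihood test, Benjamini-Hochberg adjusted p = 0.0236). It was 1 of 10 members called in that comparison, where 4.89% of the genes tested were called and 2.47% were called higher. With 10 members, 1 call is a result on Casq1 and not on the group, and 3 of 10 (Casq1, Sln and Casq2) had an unadjusted p under 0.05 against 18.7% of the genes tested. Its libraries did not overlap, which held for 3.74% of the genes tested. Without overlap, the difference had to be positive in each of the 4 runs of library codes that hold both groups, so that count adds nothing. The difference was 1.41 with the run as a block (adjusted p = 0.0336). Adjusted p rose to 0.0539 without STZ floxed library 14 and to 0.0819 when only these 2 groups were fitted, with log2 fold changes of 1.30 and 1.32. With 1 library left out in turn, the log2 fold change ran from 1.05 to 1.47.

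In floxed muscle STZ gave a Casq1 log2 fold change of -1.28 ± 0.36, which did not pass edgeR's test (adjusted p = 0.0785) and passed that of DESeq2 (-1.27, adjusted p = 0.0207). No member was called by edgeR there, against 1.35% of the genes tested, and 1 of 10 had an unadjusted p under 0.05, against 14.4% of the genes tested. The 4 floxed and 5 STZ floxed libraries did not overlap, as for 8.79% of the genes tested. Casq1 was therefore bound to be lower in 3 of 3 runs. Without STZ floxed library 3 the value was -1.45 (edgeR adjusted p = 0.0472). That was the lowest adjusted p with 1 library left out, and the highest was 0.204. STZ floxed library 17, the lowest, carried part of the size, since the fold change was -1.01 without it (adjusted p = 0.107). Casq1 values for the knockout without STZ (0.45 ± 0.35) and for STZ in knockouts (-0.43 ± 0.31) did not pass (adjusted p of 0.728 and 0.595). The difference between the STZ effects of both genotypes was 0.86 ± 0.48 (adjusted p = 0.9996), so a smaller STZ effect in knockouts is not shown. The comparisons of STZ floxed with floxed and with STZ TKO muscle share the 5 STZ floxed libraries. The Casq1 fold changes of -1.28 and 1.31 are therefore not independent.

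Other transcripts moved in the same comparisons. Of 10 fibroblast markers, 2 fell and 10 had negative fold changes with STZ in floxed muscle (summed level of 2525 to 7850 CPM in floxed and 609 to 1435 CPM in STZ floxed libraries). Of 9 fast fibre markers, 8 had negative fold changes there, with a median of -0.79, and edgeR called 0 (5 at an unadjusted p under 0.05, 2 by DESeq2). Their summed level was 106500 to 185800 CPM in floxed and 39230 to 163800 CPM in STZ floxed libraries, lowest in library 17. Under STZ, 8 of 14 macrophage markers were higher in knockouts and all 14 had positive fold changes, with summed levels of 186 to 284 CPM in STZ floxed and 293.5 to 2525 CPM in STZ TKO libraries. In the same comparison all 10 fibroblast markers had positive fold changes (median 0.92, 6 at an unadjusted p under 0.05), of which edgeR called 1, Col3a1, and DESeq2 2, with summed levels of 609 to 1435 CPM in STZ floxed and 786 to 5274 CPM in STZ TKO libraries. All 8 slow fibre markers were positive (median 0.51) with none called by edgeR or DESeq2 or at an unadjusted p under 0.05, at 699 to 1099 against 695 to 1765 CPM. Of 8 smooth muscle markers 7 were negative (median -0.41) and 1, Myh11, was called, at 3429 to 4858 against 2963 to 4591 CPM. Also under STZ, 7 of 8 adipocyte markers (median -1.24) and 9 of 10 endothelial markers (median -0.35) had negative fold changes. Of 11 denervation markers 9 were positive (median 0.83). In each of these lists 4 had an unadjusted p under 0.05, edgeR called 0 and DESeq2 1. Of 8 skeletal muscle tissue markers, edgeR called 1 lower with STZ in floxed muscle and 1 higher in the knockout under STZ. DESeq2 called Mb in both, in those directions. No gene of these lists was at 0 in every library, and their part in the Casq1 result was not tested. Without libraries 4, 15, 16 and 20, chosen for high macrophage markers, the Casq1 difference under STZ was 1.46 (adjusted p = 0.0238). The STZ TKO libraries left in that fit had macrophage sums of 293.5 to 1035 CPM. All were still above every STZ floxed library (at most 284 CPM), so that fit does not remove the macrophage difference.

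**Figure D2:**
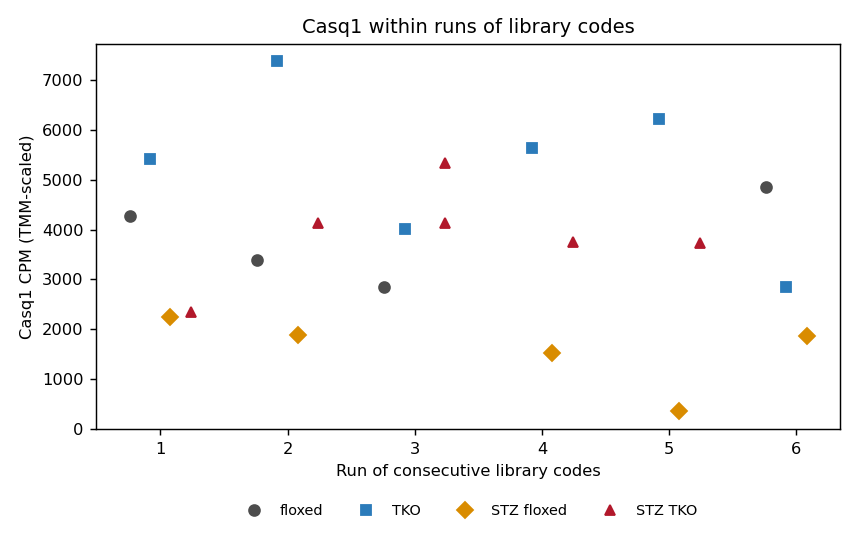
Casq1 in CPM (vertical axis, from 0) within the 6 runs of consecutive library codes (horizontal axis); each symbol is 1 library and its shape gives the group. STZ floxed libraries are the lowest of their run in each of the 5 runs that hold one, from 372 to 2240 CPM. This follows from their lying below every library of the other groups.

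Casq2, the calsequestrin of slow and cardiac muscle, was far less abundant. Floxed libraries lay close together at 17.6, 14.5, 14.8 and 15.7 CPM, and STZ floxed libraries at 19.6, 13.6, 29.7, 18.0 and 25.6 CPM. TKO libraries ranged from 13.4 over a median of 26.3 to 162 CPM, and STZ TKO libraries from 20.6 over 46.7 to 72.4 CPM. Of the STZ TKO libraries, 5 lay above all STZ floxed ones and library 8 did not. Under STZ the knockout difference was 1.12 ± 0.51 on the log2 scale (edgeR adjusted p = 0.234) and was positive in 4 of 4 runs. Of these, only the run of library 8 was free to go the other way. Without STZ it was 1.59 ± 0.56 (adjusted p = 0.212), and 0.61 (adjusted p = 0.777) without TKO library 20, which alone held 162 CPM.

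The promoters of both calsequestrin genes are printed because these paralogues lay at very different levels, and because FoxO factors, which bind GTAAACA, were removed. The windows reach from 250 bases before to 50 after the RefSeq start, on GRCm38.p6, and are written 5′ to 3′ along the gene. RefSeq windows were matched for 6 of the 10 genes (Ryr1, Casq1, Casq2, Atp2a1, Pln and Pvalb, the last with 2 starts) and not for Atp2a2, Sln, Jph1 and Trdn. Capitals in the first mark an E-box, CAGCTG, at -195 from the start, and in the second a MEF2 motif at -69.
Casq1 promoter, chr1:172219846-172220145, minus strand: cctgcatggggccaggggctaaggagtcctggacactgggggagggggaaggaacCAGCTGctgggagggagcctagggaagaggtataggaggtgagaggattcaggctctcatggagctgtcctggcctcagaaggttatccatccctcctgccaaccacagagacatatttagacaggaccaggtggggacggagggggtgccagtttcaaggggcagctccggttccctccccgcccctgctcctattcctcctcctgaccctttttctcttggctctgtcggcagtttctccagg
Casq2 promoter, chr3:102086165-102086464, plus strand: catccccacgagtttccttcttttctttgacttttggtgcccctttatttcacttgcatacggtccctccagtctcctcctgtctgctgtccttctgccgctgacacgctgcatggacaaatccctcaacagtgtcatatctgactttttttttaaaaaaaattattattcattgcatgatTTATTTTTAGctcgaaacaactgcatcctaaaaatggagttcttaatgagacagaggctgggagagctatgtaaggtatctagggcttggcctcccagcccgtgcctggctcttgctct
On both strands, GTAAACA was found in 0 of the 7 windows, against 3.65% of 32851 RefSeq windows of that length. CAGCTG was found in the windows of Casq1, Atp2a1 and Pln, against 16.3% of all, and the MEF2 motif in those of Casq2 and of 1 Pvalb start, against 3.19%. No searched motif overlapped another in these windows. A match is a string of letters and not evidence of binding.

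Atp2a1 encodes SERCA1, the calcium pump of fast fibres, and took 3.38% of all counts. Floxed libraries held 36670, 40100, 30070 and 31740 CPM, and STZ floxed libraries 46980, 51330, 36490, 21680 and 40850 CPM. TKO libraries ran from 15150 over 32420 to 40940 CPM, and STZ TKO libraries from 20080 over 34200 to 40320 CPM. The STZ floxed group held both the highest libraries and, in library 17, 1 of the lowest. Fold changes on the log2 scale were 0.19 ± 0.30 for STZ in floxed muscle, -0.16 ± 0.28 for the knockout without STZ and -0.33 ± 0.27 under STZ (edgeR adjusted p of 0.562 to 0.921). Atp2a1 was higher with STZ in 3 of 3 runs that hold floxed and STZ floxed libraries, each with 1 library a group. These runs leave out STZ floxed libraries 14 and 17. Their STZ floxed libraries all lay above every floxed library for Atp2a1, so that count was fixed. Sln and Trdn were higher in all 3 too, with log2 fold changes of 0.22 and -0.04. Atp2a2, Casq1 and Pvalb were lower in all 3, although the fold change of Atp2a2 was 0.08.

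Atp2a2 encodes SERCA2, the pump of slow fibres and the heart. It lay at 568, 680, 446 and 367 CPM in floxed and at 492, 446, 631.5, 788 and 362 CPM in STZ floxed libraries. TKO libraries spanned 332 to 679.8 CPM around a median of 464, and STZ TKO libraries 304 to 836 CPM around 615. No group stood apart, and the 4 log2 fold changes between groups ran from -0.09 to 0.33 (standard errors of 0.24 to 0.28).

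Sln encodes sarcolipin, the SERCA inhibitor that in adult mice is rich in slow and atrial muscle. It was near the limit of detection, with 2, 2, 8 and 0 counts in floxed and 7, 3, 6, 1 and 2 counts in STZ floxed libraries, or at most 1.38 CPM. TKO libraries ran from 0 over a median of 3.04 to 26.6 CPM (0 to 183 counts), and STZ TKO libraries from 0.683 over 4.41 to 9.40 CPM (4 to 45 counts). In TKO muscle 5 libraries were above every floxed library and library 13 was at 0. In STZ TKO muscle 5 libraries were above every STZ floxed library and library 12 was not. The knockout differences were 3.65 ± 1.07 without STZ (edgeR adjusted p = 0.123) and 2.79 ± 0.95 under STZ (adjusted p = 0.098) on the log2 scale. Sln was higher in the knockout in 4 of 4 runs in each. The knockout libraries of these runs all lay above every control library, so that count adds nothing. Libraries 13 and 12 lie in runs without a control library and did not enter it.

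These Sln values depended on single libraries and on the fit. DESeq2 called the difference without STZ (adjusted p = 0.032), as did edgeR without TKO library 13 (3.92, adjusted p = 0.0458), and without TKO library 20 it was 2.33 (adjusted p = 0.460). Under STZ it was called when only the 2 groups were fitted (2.80, adjusted p = 0.031). Library 20, highest for Sln and Casq2, also had the highest summed level of 11 denervation markers, 724 CPM against 128 to 222 CPM in floxed libraries, and a macrophage sum of 2001 CPM against 170 to 220 CPM. In TKO against floxed muscle 8 of the 11 denervation markers had positive fold changes (median 1.93), with 0 called by edgeR, 8 at an unadjusted p under 0.05 and 5 called by DESeq2. All 14 macrophage markers were positive there (median 2.19), and edgeR called 2 and DESeq2 10. None of these markers was at 0 in every library, and their part in the Sln and Casq2 values was not tested.

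Pln encodes phospholamban, the SERCA2 inhibitor, and had only 6 to 56 counts per library. Floxed libraries lay at 6.82, 1.67, 5.34 and 10.0 CPM, and STZ floxed libraries at 2.77, 7.77, 4.42, 6.73 and 8.02 CPM. TKO libraries ran from 1.81 over 2.65 to 5.16 CPM, and STZ TKO libraries from 3.24 over 5.09 to 6.66 CPM. Of the floxed libraries, 3 lay above every TKO library and library 5 lay below all of them. The log2 fold change of the knockout without STZ was -1.03 ± 0.39 and did not pass (edgeR adjusted p = 0.246). Exons of Cep85l on the opposite strand share 141 bases with Pln, and the strand setting of the counting is not given in the sources used here, so the small Pln counts are uncertain.

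In the knockout without STZ no member was called by edgeR, against 0.514% of the genes tested. At an unadjusted p under 0.05 there were 3 (Sln, Casq2 and Pln), against 11.5% of the genes tested, and DESeq2 called 1, Sln. No member had groups that did not overlap, against 4.97% of the genes tested. For STZ in knockouts edgeR and DESeq2 called 0 of 10, none had an unadjusted p under 0.05 (11.3% of the genes tested had), 0.142% of the genes tested were called, and none was free of overlap (0.624% of the genes tested). For the difference between the STZ effects, edgeR and DESeq2 called 0 of 10, with none at an unadjusted p under 0.05 (3.89% of the genes tested) and 0.0079% of the genes called. The median log2 fold change of the 10 was -0.03 for STZ in floxed muscle, -0.11 for the knockout without STZ, 0.17 under STZ and 0.02 for STZ in knockouts, beside 0.02, 0.00, 0.03 and 0.01 over all genes tested.

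**Figure D3:**
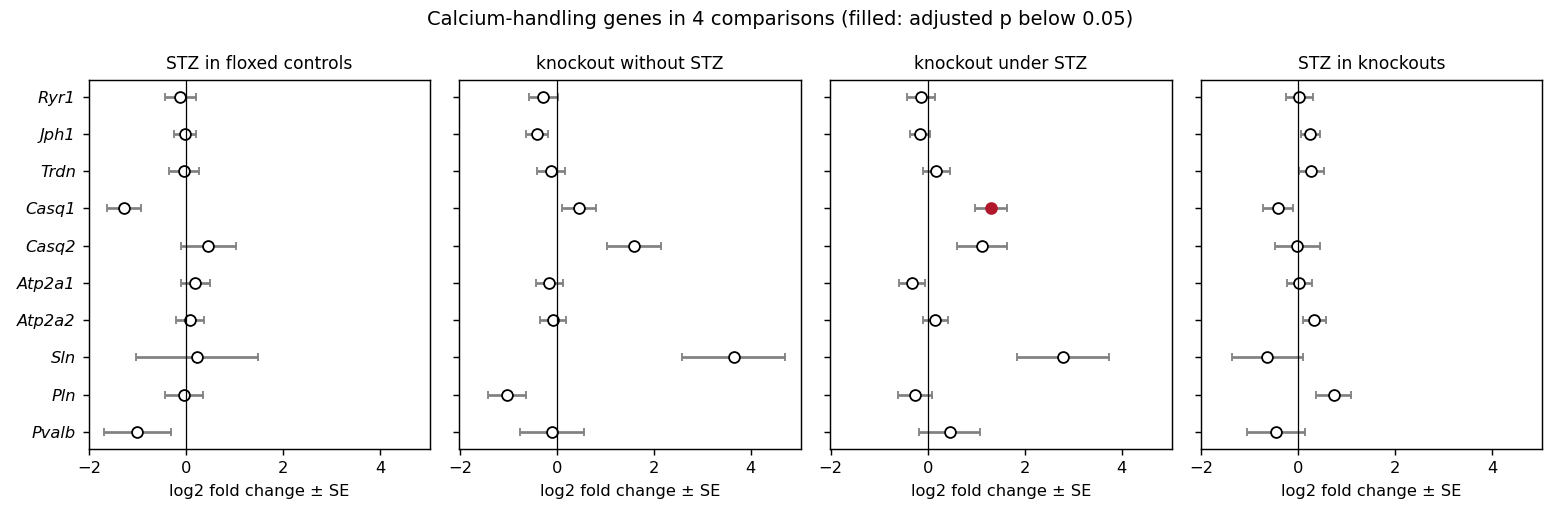
Log2 fold change ± SE (horizontal axis) of each of the 10 genes (rows) in the 4 comparisons between groups (panels); the filled point passed an adjusted p of 0.05. Casq1 under STZ (1.31) is the filled point, and in both knockout panels Sln lies farthest to the right (3.65 and 2.79) with a wide error.

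Pvalb encodes parvalbumin, the calcium buffer of the fastest fibres, and had the widest range of the 10, from 409 to 22250 CPM. Floxed libraries held 12440, 12200, 10070 and 6961 CPM, and STZ floxed libraries 11020, 8178, 2708, 409 and 3595 CPM. TKO libraries ran from 4256 over 8438 to 20210 CPM, and STZ TKO libraries from 1597 over 4575 to 22250 CPM. With STZ, 3 of the 5 libraries lay under the floxed range and 2 within it. The log2 fold change for STZ in floxed muscle was -1.01 ± 0.69 (edgeR adjusted p = 0.524). Pvalb was lower in 3 of 3 runs, each with 1 library a group.

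The level of Pvalb, whose longest transcript is under 1 kb, went with the balance of short and long transcripts in a library. That balance was measured as the median log2 deviation of 387 genes of at most 1 kb less that of 1682 genes of at least 6 kb. It was highest in libraries 8 (1.60) and 6 (1.44), which also had the highest Pvalb levels, and lowest in library 17 (-0.99), which had the lowest. Ryr1, with the longest transcript of the 10, was low in library 8 (3115 CPM), but its lowest value was in library 20 (2660 CPM), where the balance was 0.10, and in library 17 it lay below its median (6762 against 7961 CPM). With this balance as a covariate, an alternative chosen after seeing the data, the Pvalb value for STZ in floxed muscle was -0.64 (adjusted p = 0.506), and Casq1 under STZ was 1.28 (adjusted p = 0.0176).

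Per kb of exon, which allows genes to be compared, the mean level over all 21 libraries was 9735 CPM for Atp2a1, 7710 for Pvalb, 1907 for Casq1, 356 for Ryr1, 136 for Trdn, 105 for Jph1, 88.8 for Atp2a2, 12.7 for Casq2, 2.71 for Sln and 1.74 for Pln. The fast isoform exceeded the slow one for both the store protein and the pump. On this scale Casq2 was 0.300 ± 0.0569% of Casq1 in floxed libraries (SD, n = 4), between 0.232 and 0.371%. In STZ floxed libraries it was 0.515 to 3.45%, above every floxed library. Between these groups Casq2 itself overlapped (log2 fold change 0.45 ± 0.57, edgeR adjusted p = 0.768), while Casq1, the denominator, did not. The ratio spanned 0.169 to 4.07% in TKO and 0.356 to 2.19% in STZ TKO libraries, overlapping both. The ratio of Atp2a2 to Atp2a1 had medians of 0.867, 0.791, 0.599 and 1.01% in floxed, TKO, STZ floxed and STZ TKO libraries, and its groups overlapped. Its 2 highest values were those of TKO library 20 (2.57%) and STZ floxed library 17 (2.08%).

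**Figure D4:**
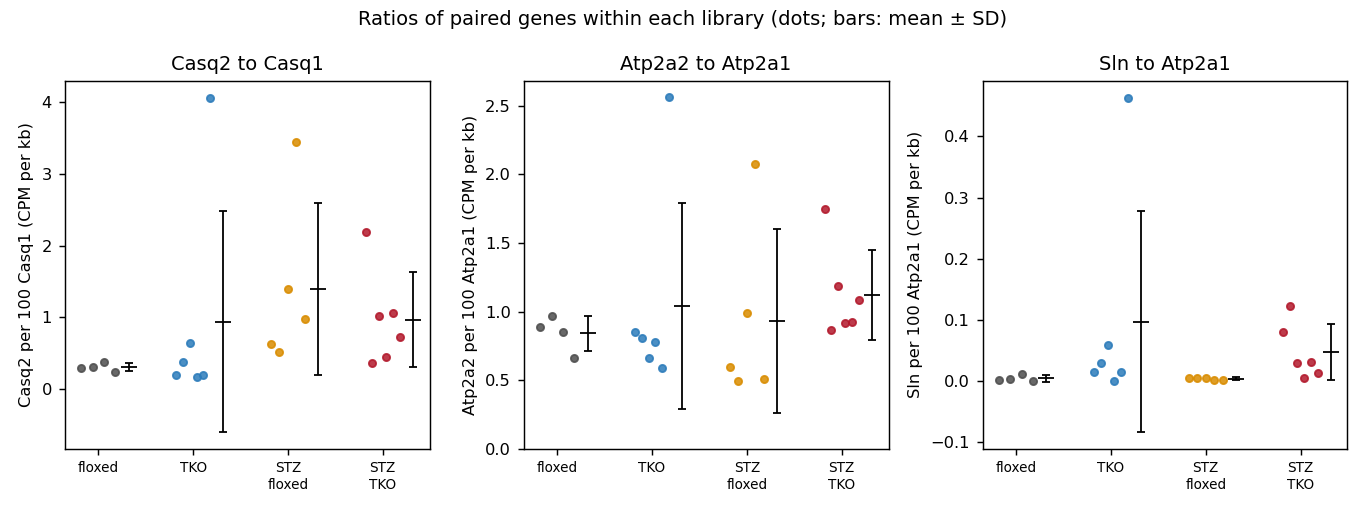
Ratios between paired genes within each library, in % of CPM per kb (vertical axes): Casq2 to Casq1, Atp2a2 to Atp2a1 and Sln to Atp2a1, by group; dots are libraries and bars are mean ± SD. The Casq2 to Casq1 ratio of all 5 STZ floxed libraries (0.515 to 3.45%) lies above that of the 4 floxed libraries (at most 0.371%). Between these groups Casq1, the denominator, did not overlap, while Casq2 did.

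The rest of the calcium machinery was described with 76 further genes in 7 lists, of which 70 were tested: voltage sensor and triad, reticulum store, pump isoform and micropeptides, cytosolic calcium binding, calcium signalling, entry and extrusion, and mitochondrial uptake. Under STZ, 3 of 70 were higher and 2 lower in knockouts by edgeR, and 65 did not pass, with a median of 0.02. The share called in that comparison was 4.89% over all genes, and 5 of 70 is close to it.

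Mcu, the pore of the mitochondrial calcium uniporter, lay at 33.2 ± 4.14 CPM in STZ floxed (SD, n = 5) and at 53.3 ± 4.41 CPM in STZ TKO muscle (n = 6). The difference was 0.68 ± 0.15 on the log2 scale (edgeR adjusted p = 0.00827). Its 2 groups did not overlap, at 27.3 to 37.2 against 45.3 to 57.7 CPM, which held for 3.74% of the genes tested. Camk2b, a calcium and calmodulin dependent kinase, was higher in STZ TKO by 0.97 ± 0.26 (adjusted p = 0.0331), and Calu, the reticulum calcium binder calumenin, by 0.53 ± 0.14 (adjusted p = 0.0287). Slc8a1, the sodium and calcium exchanger, fell from 27.7 ± 9.87 to 13.1 ± 4.23 CPM, by 1.07 ± 0.24 (adjusted p = 0.0106). Mylk2, the myosin light chain kinase of skeletal muscle, fell from 1141 ± 200.3 to 578 ± 116 CPM, by 0.98 ± 0.25 (adjusted p = 0.0214). Calu, Slc8a1 and Mylk2 were free of overlap between these groups too, and Camk2b was not (56.2 to 185 against 158 to 350 CPM). Without STZ, the knockout log2 fold changes of Slc8a1 and Mylk2 were -0.87 ± 0.26 and -0.71 ± 0.26 (edgeR adjusted p of 0.133 and 0.231). Their floxed and TKO libraries did not overlap either, as for 4.97% of the genes tested. The differences between the STZ effects were -0.20 ± 0.36 and -0.27 ± 0.36, so a knockout difference particular to STZ is not shown. Under STZ, leaving out 1 library ended the call of Camk2b for libraries 11, 14, 15, 17 and 21 (adjusted p up to 0.0737). That of Calu ended for libraries 4, 7, 15, 17 and 21 (up to 0.0895) and that of Mylk2 for libraries 7 and 21 (up to 0.0554). Mcu and Slc8a1 stayed called with any 1 library left out, but Mcu was lost without the filter on low counts (adjusted p = 0.0549) and Slc8a1 without libraries 17 and 18 (0.0668) and with only 2 groups fitted (0.0512). Mcu, Camk2b and Calu had means of 44.7, 204 and 177 CPM in floxed and of 50.4, 293 and 184 CPM in TKO muscle. With STZ in floxed muscle their log2 fold changes were -0.43 ± 0.16, -0.55 ± 0.29 and -0.41 ± 0.15. None passed (edgeR adjusted p of 0.217, 0.379 and 0.212). The comparisons of STZ floxed with floxed and with STZ TKO muscle share the STZ floxed libraries and are not independent.

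In the other comparisons edgeR called 0 of the 70. At an unadjusted p under 0.05 there were 13 for STZ in floxed muscle, 7 for the knockout without STZ, 12 for STZ in knockouts and 4 for the difference between the STZ effects, against 14.4, 11.5, 11.3 and 3.89% of the genes tested. DESeq2 called 3 for STZ in floxed muscle (Rcan2, Srl and Sypl2, all lower), 0 for the knockout without STZ, 1 for STZ in knockouts (Mtm1, higher) and 0 for the difference. Sypl2, which encodes the triad protein mitsugumin 29, had a log2 fold change of -1.26 for STZ in floxed muscle (edgeR adjusted p = 0.0695). All 6 tested cytosolic calcium binders, which include the fast troponin C gene Tnnc2, had negative fold changes there, with a median of -0.63 and none called. Ryr2, Strit1, Erln, Ocm, Calb1 and Atp2b2 had too few counts to be tested, with at most 24 in a library.

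Genes whose log2 CPM was most like that of each member over the 21 libraries were picked by Pearson's r among 9852 genes and are given as a description. The libraries share groups, depth and the length balance above. Casq1 was most like Kcng4 (r = 0.919), Mb, the oxygen store myoglobin (0.916), and Znrf1 (0.909). Atp2a1 was most like the calcineurin subunit gene Ppp3ca (0.887), the fast myosin Myh4 and Scmh1 (both 0.862), and Atp2a2 was most like the slow myosin Myh7 (0.840). Casq2 was most like the embryonic myosin Myh3 (0.897) and the denervation marker Ncam1 (0.888). Sln was most like the cardiac troponin T gene Tnnt2 (0.903) and the protease genes Lgmn (0.857) and Ctss (0.854), the latter one of the macrophage markers. Pvalb was most like Tpm1 (0.979) and Tpi1 (0.969). For the coupler genes the closest were Mapk9 for Jph1 (0.897) and Chchd3 for Trdn (0.859), and for Pln Erp44 (0.802).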

How the data were processed

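The authors deposited read counts per Ensembl mouse gene, not normalized. STAR, featureCounts and build GRCm38.p4 are named per the submitters' processing notes. Versions, annotation and strand setting are not given in these sources. Identifiers were matched to GENCODE release M21 (45143 of 46071). Groups came from genotype and drug in the labels. No pair of libraries was a duplicate (chi-square over genes divided by its degrees of freedom was at least 8.61).

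Counts were filtered with filterByExpr, scaled by TMM and tested in edgeR 4.0.16 (R 4.3.3) by a robust quasi-likelihood fit of 4 group means to all 21 libraries, two-sided, with Benjamini-Hochberg adjustment over 12658 genes at 0.05. Standard errors were derived from the F statistic. DESeq2 1.42.0 was an alternative. On simulated counts, 39% of genes changed 1 log2 unit and 92% of those changed 2 were recovered for the knockout under STZ, and 27% and 88% for STZ in floxed muscle.

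The genes and lists were chosen with earlier results of these data known. Named were the 10 members, every listed pathway gene past the threshold (at most 8 a comparison), Myh7, Myh2, Myh1, Myh4, Foxo1, Foxo3, Foxo4 and the 3 genes most like each member by Pearson's r. The genes named for DESeq2 calls, Sypl2, Tnnc2, Col3a1 and Myh11 were chosen after their values were seen. Alternatives were other size factors, no filter, DESeq2, fitting 2 groups, a block for the 6 runs of consecutive library codes (not called batches in the labels), libraries left out and a transcript-length covariate. The covariate and the fit without libraries 6 and 8 were chosen after seeing the data. The gene most like Ryr1 is not reported here. After group means were removed, libraries of a run had a mean correlation of 0.157 (27 pairs), against -0.0774 (183 pairs) between runs.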

Additional observations from a re-analysis of the deposited data

Results flagged for a closer look

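Dixon's criterion was applied to each of the 10 genes in each of the 4 groups, 40 in all, and 6 of them held a library whose gap to its nearest neighbour was large against the range of its group. Chance gives about 1 in 20. In TKO muscle, library 20 stood above the others for Casq2 (162 CPM) and Sln (26.6 CPM), and library 16 for Pln (5.16 CPM). In STZ TKO muscle, library 8 stood below the others for Ryr1 (3115 CPM) and above them for Pvalb (22250 CPM). In floxed muscle, library 19 stood above the others for Jph1 (679.5 CPM).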

How the results depend on the processing

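Libraries could not be paired by replicate number, because the title numbers 1 to 21 are unique and none is shared between groups. The runs of library codes served as a block instead, with its values below. Casq1 under STZ kept its direction in every alternative and lost its call without library 14 and with 2 groups fitted, where Sln was the member called. Sln and Pln rest on at most 183 and 56 counts a library, which limits their precision.

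With 1 library left out in turn, members called ranged from 0 to 1 for STZ in floxed muscle (1 without library 3), from 0 to 1 for the knockout without STZ (1 without library 13) and from 0 to 1 for the knockout under STZ (0 without library 14), and pathway genes called from 0 to 2 (2 without library 3) for STZ in floxed muscle and from 2 to 6 for the knockout under STZ (3 without library 7, 15 or 17, 2 without library 21). DESeq2 called 1 member for STZ in floxed muscle and 1 for the knockout without STZ. Pathway genes called for STZ in floxed muscle were 3 by DESeq2, 1 with 2 groups fitted, 2 with the run block, 1 without libraries 17 and 18, and 1 with the length covariate, against 0. For the knockout under STZ they were 3 without the filter, 8 by DESeq2, 2 with 2 groups and 3 without libraries 4, 15, 16 and 20, against 5, and for STZ in knockouts 1 by DESeq2 and 1 with the run block. The causes were not tested.

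Over all genes, calls for STZ in floxed muscle were 428 by DESeq2, 265 with 2 groups, 266 without libraries 6 and 8 and 31 to 333 with 1 library left out, against 171. For the knockout without STZ they were 346 by DESeq2, 40 without libraries 4, 15, 16 and 20, 125 without 17 and 18, 109 with the covariate and 32 to 105 with 1 left out, against 65. For the knockout under STZ they were 992 by DESeq2, 312 with 2 groups, 1068 with the run block, 955 with the covariate and 380 to 676 with 1 left out, against 619. For STZ in knockouts they were 29 without the filter, 110 by DESeq2, 4 with 2 groups, 98 with the block, 28 without libraries 17 and 18, 35 with the covariate and 7 to 61 with 1 left out, against 18. For the difference of STZ effects they were 0 to 3, against 1.

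Log2 fold changes that changed sign passed no test, and those of Casq2, Sln and Pvalb were not all small. For STZ in floxed muscle these were Atp2a2 without libraries 17 and 18 (-0.083) and with the covariate (-0.10), Pln with the block (0.016), Jph1 with RLE factors (0.0016) and DESeq2 (0.0027), and Trdn with the block (0.049), without 17 and 18 (0.14) and with the covariate (0.14). For the knockout without STZ they were Atp2a1 (0.033), Trdn (0.076) and Pvalb (0.18) without libraries 4, 15, 16 and 20, and Pvalb with the block (0.27). For the knockout under STZ they were Ryr1 (0.016), Trdn (-0.034) and Pvalb (-0.37) without libraries 6 and 8, and Pvalb with the covariate (-0.038). For STZ in knockouts, Ryr1 was -2e-04 without the filter, -0.0069 with 2 groups, -0.0012 with the block, -0.31 without libraries 4, 15, 16 and 20, -0.065 without 17 and 18 and -0.13 with the covariate. Casq2 was 0.55 with the block, 0.54 without libraries 4, 15, 16 and 20, 0.025 without 17 and 18 and 0.059 without 6 and 8. Atp2a1 was -0.0093 with 2 groups, -0.022 with the block, -0.13 without libraries 4, 15, 16 and 20 and -0.015 without 17 and 18, and Sln was 0.15 with the block and 0.32 without libraries 4, 15, 16 and 20. For the difference of STZ effects, without libraries 4, 15, 16 and 20 Ryr1 was -0.19, Casq2 0.086 and Sln 0.086, and without 17 and 18 Ryr1 was -0.007.

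With 1 library left out in turn, signs changed within these ranges. For STZ in floxed muscle they were -0.072 to 0.24 for Atp2a2, -0.19 to 1.29 for Sln, -0.33 to 0.31 for Pln, -0.079 to 0.057 for Jph1 and -0.16 to 0.15 for Trdn. For the knockout without STZ they were -0.22 to 0.071 for Atp2a2, -0.28 to 0.023 for Trdn and -0.43 to 0.078 for Pvalb, and for the knockout under STZ -0.21 to 0.020 for Ryr1, -0.028 to 0.30 for Trdn and -0.36 to 0.94 for Pvalb. For STZ in knockouts they were -0.16 to 0.18 for Ryr1, -0.23 to 0.97 for Casq2, -0.13 to 0.12 for Atp2a1 and -0.93 to 0.69 for Sln, and for the difference of STZ effects -0.043 to 0.30 for Ryr1, -0.68 to 0.51 for Casq2, -1.92 to 0.47 for Sln and -0.26 to 1.01 for Pvalb. By the longest transcript, the levels per kb were 506 CPM for Ryr1 and 281 for Trdn. By Spearman's rho, 11 of the 30 likeness values differed from r by 0.1 or more.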
